A study of Mus musculus with 4 samples.

Results

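Of the 48681 regions called as bound by the linker histone H1t in the chromatin of mouse testicular cells, 2740 (5.63%) had their centre in the body of a long noncoding RNA gene. These peaks were chosen by position and not by any measured value. The centre, midway between the first and the last base, had to lie on chromosomes 1 to 19 in a gene that GENCODE vM21 classes as lincRNA or antisense, and in no protein-coding gene body. The 4 libraries came from C57BL6 mice at postnatal day 20, without any treatment or genetic change named in the labels. Chromatin precipitated with a rabbit antibody raised against the C-terminal part of H1t gave 2 ChIP libraries, and chromatin taken before the precipitation gave 2 input libraries. The labels call the cells pachytene cells, whereas the source is given as testicular cells and the methods describe no step that enriches for spermatocytes, so other cells of the testis may have contributed. A peak list carries no gene expression, so this label could not be checked against cell markers.

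Linker histones sit on the nucleosome where DNA enters and leaves it and help to compact the chromatin fibre. In pachytene spermatocytes H1t is the most abundant of these variants. These are the meiotic cells in which homologous chromosomes are fully paired. Long noncoding RNAs (lncRNAs) are transcripts that are not translated. A lincRNA gene lies between protein-coding genes, and an antisense gene is read from the strand opposite to another gene. The testis transcribes more lncRNA genes than most tissues, and most of these genes have no known function. Airn and Kcnq1ot1 are known to silence neighbouring imprinted genes in cis, Neat1 builds the paraspeckle and Malat1 resides in nuclear speckles.

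The sequences under the most enriched peaks differed in kind. Among the lncRNA gene peaks of highest fold, 3 are shown, together with 1 that was masked over its whole length, from the plus strand of GRCm38, 5′ to 3′, whole up to 300 bases and otherwise by their central 300 bases. Capitals mark bases that the reference masks as repeats.
D130079A08Rik, chr14:104336928-104337192: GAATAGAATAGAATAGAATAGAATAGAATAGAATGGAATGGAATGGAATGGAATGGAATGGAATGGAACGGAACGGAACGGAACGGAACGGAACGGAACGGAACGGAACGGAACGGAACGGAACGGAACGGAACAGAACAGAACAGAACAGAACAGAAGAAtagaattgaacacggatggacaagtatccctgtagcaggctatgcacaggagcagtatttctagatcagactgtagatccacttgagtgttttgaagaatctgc
Gm26573 and Gm13166, chr4:146272168-146272467: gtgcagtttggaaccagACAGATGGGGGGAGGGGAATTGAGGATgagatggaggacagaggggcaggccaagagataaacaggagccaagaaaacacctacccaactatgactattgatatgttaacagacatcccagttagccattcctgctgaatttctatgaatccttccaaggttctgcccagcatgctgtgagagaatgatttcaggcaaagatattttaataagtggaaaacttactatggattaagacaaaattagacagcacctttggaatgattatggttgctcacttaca
Gm21847 and Gm30613, chr5:15575443-15575742: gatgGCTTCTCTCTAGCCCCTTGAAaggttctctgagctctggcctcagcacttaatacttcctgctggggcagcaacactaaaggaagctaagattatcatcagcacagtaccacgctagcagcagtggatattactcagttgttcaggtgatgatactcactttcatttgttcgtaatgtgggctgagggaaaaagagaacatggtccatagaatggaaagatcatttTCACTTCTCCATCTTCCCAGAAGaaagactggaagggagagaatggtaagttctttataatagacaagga
Gm10827, chr10:18239638-18239894: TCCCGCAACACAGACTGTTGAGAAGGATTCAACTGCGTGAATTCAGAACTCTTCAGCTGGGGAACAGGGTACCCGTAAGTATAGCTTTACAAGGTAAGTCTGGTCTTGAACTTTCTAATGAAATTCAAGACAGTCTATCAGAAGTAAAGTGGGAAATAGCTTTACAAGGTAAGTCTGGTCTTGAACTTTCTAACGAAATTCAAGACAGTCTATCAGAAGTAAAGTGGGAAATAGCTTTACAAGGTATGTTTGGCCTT

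The first sequence opened with a run of 5-base units, and 67.7% of its bases matched the base 5 positions further on. In the Gm10827 sequence 63.2% of the bases matched the base 75 positions on, whereas no shift gave more than 35.3% in the other 2 sequences. In the GRCm38 assembly, 3 copies in a row of GGAAT (GGAATGGAATGGAAT, or ATTCCATTCCATTCC on the other strand) were found in 0.00272% of 3533433 autosomal windows of 678 bp, the median width of the lncRNA gene peaks. They were found in 15 of the 48366 autosomal peaks, and the 9 autosomal peaks of highest fold all carried them. The D130079A08Rik peak was the 7th highest in fold on the autosomes and the only lncRNA gene peak with this run. Of the other carriers, 11 lay in no gene body, 2 in protein-coding bodies and 1 in a gene of another type. The 15 folds ran from 1.68 to 28.4 with a median of 9.44. A match is a description of the letters under a peak, and its part in the high folds was not tested. Runs of this unit also occur in satellite DNA of other mammals, and whether reads from another source were placed on them was not tested, so the folds of these peaks, 9.47 at D130079A08Rik included, are uncertain.

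Most of the lncRNA gene peaks were weak. The fold, which is the authors' ratio of the ChIP signal to the local background from the input, had a median of 1.73 (95% order-statistic interval 1.73 to 1.74) and ran from 1.33 to 9.47, with 1.66 at the 5th and 1.98 at the 95th percentile. Other autosomal peaks had a median fold of 1.73 as well (interval 1.72 to 1.73). The pileup, the number of ChIP fragments stacked at the peak, had a median of 9.45, with 9 as the lowest and 101 as the highest value. The median width was 678 bp (interval 661 to 703) against 651 bp (646 to 656) for other autosomal peaks. As the 2 ChIP libraries were pooled against the 2 input libraries before the peaks were called, each peak has a single value. Values of single libraries, and with them any spread between replicates, were not analysed here, so the intervals and p-values that follow cover counting error alone. Peaks cluster along the chromosomes and are not replicates, so intervals and p-values are too small where neighbouring peaks depend on each other.

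A fold of at least 2 was reached by 120 of the 2740 peaks, or 4.38% (95% Wilson interval 3.68 to 5.21), where 3.58% of all 48366 autosomal peaks did. The share among the other autosomal peaks was 3.53% (two-sided Fisher's exact test, adjusted p = 0.0409 over the 9 shares compared). A p under 0.01 was given for 379 of the lncRNA gene peaks (13.8%, interval 12.6 to 15.2), beside 11.7% of all autosomal peaks and 11.5% of the others (Fisher's exact test, adjusted p = 0.00114). A q under 0.05 was given for 6 of them, or 0.219% (0.100 to 0.477), beside 0.242% of all autosomal peaks. The adjusted p of that comparison was 1 by Fisher's exact test, and 6 peaks set a wide interval. A width of at least 2 kb was found for 128 peaks, 4.67% (3.94 to 5.53) against 2.30% (2.17 to 2.45) of the other autosomal peaks (Fisher's exact test, adjusted p = 1.76e-11). The excess in these 3 features no longer passed the test once a few places described below, 145 to 148 Mb of chromosome 4, 15 to 16 Mb of chromosome 5 and 65 to 67 Mb of chromosome 13, were left out everywhere: a fold of at least 2 was found in 2.73% against 3.39% of other peaks, a p under 0.01 in 9.86% against 11.2%, and a width of at least 2 kb in 2.49% against 2.11%. The adjusted p-values of Fisher's exact tests were then 0.176, 0.104 and 0.302. These 3 regions, which are the 1 Mb windows with at least 20 of the lncRNA gene peaks and adjoining windows with at least 10, were chosen after the values were seen. Leaving them out favours lower shares for the lncRNA gene peaks, so the drop is no test of the excess.

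The density of peaks in lncRNA genes was close to that of the genome. The bases of lincRNA and antisense bodies outside protein-coding bodies amounted to 126.7 Mb, or 5.29% of the ungapped autosomal bases, and held 5.67% of the autosomal peaks. This gave 21.6 peaks per Mb (95% exact Poisson interval 20.8 to 22.4), against 19.4 (19.1 to 19.7) in protein-coding bodies and 20.4 (20.2 to 20.7) in autosomal bases without any gene. The ratio to protein-coding bodies was 1.11 (1.07 to 1.16, two-sided exact conditional binomial test, adjusted p = 3.27e-07 over 2 comparisons). The ratio to bases without a gene was 1.06 (1.018 to 1.10, exact test, adjusted p = 0.00464). Without the 3 regions the lncRNA genes held 20.2 peaks per Mb (19.4 to 21.0), the ratio to protein-coding bodies was 1.05 (unadjusted interval 1.003 to 1.09, exact test, adjusted p = 0.0658) and that to bases without a gene was 0.99 (0.95 to 1.04, exact test, adjusted p = 0.771). The regions together hold 214 of the peaks. They were picked for many lncRNA gene peaks and not for peaks of the other classes, so leaving them out favours a lower lncRNA density. The drop thus describes where the peaks lie and is no test of the excess.

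**Figure D1:**
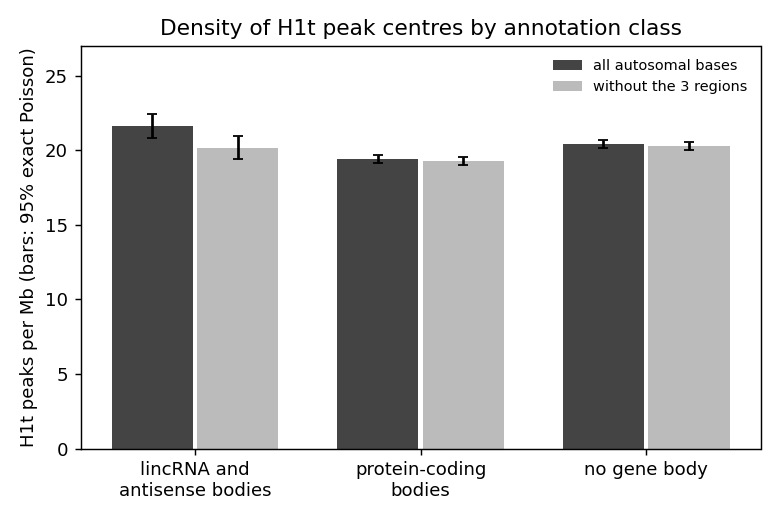
Peaks per Mb (bars from 0, error bars 95% exact Poisson intervals) in lincRNA and antisense bodies, protein-coding bodies and autosomal bases without a gene, for all autosomal bases (dark) and without the 3 regions of chromosomes 4, 5 and 13 (light). The lncRNA bar drops from 21.6 to 20.2 when the regions are left out, and the bases without a gene go from 20.4 to 20.3.

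Chromosome by chromosome, the density in lncRNA genes was above that in protein-coding bodies on 14 of the 19 autosomes, and above that in bases without a gene on 9. The interval of the ratio to protein-coding bodies lay above 1 on 3 chromosomes. Chromosome 4 had a ratio of 1.86 (1.60 to 2.14), with 37.1 peaks per Mb in lncRNA genes. Of its 225 lncRNA gene peaks, 143 lay at 145 to 148 Mb, in 0.785 of its 6.06 Mb of lncRNA bases. The excess was thus not shown for the rest of that chromosome. Chromosome 5 followed with 1.29 (1.09 to 1.52), and chromosome 13 had 1.18 (1.02 to 1.37). The ratio to bases without a gene had an interval above 1 on chromosome 4, where it was 1.85 (1.60 to 2.13), and on no other autosome. The lowest density in lncRNA genes was 17.2 peaks per Mb (14.6 to 20.2) on chromosome 10. These are 19 descriptions and not separate tests.

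**Figure D2:**
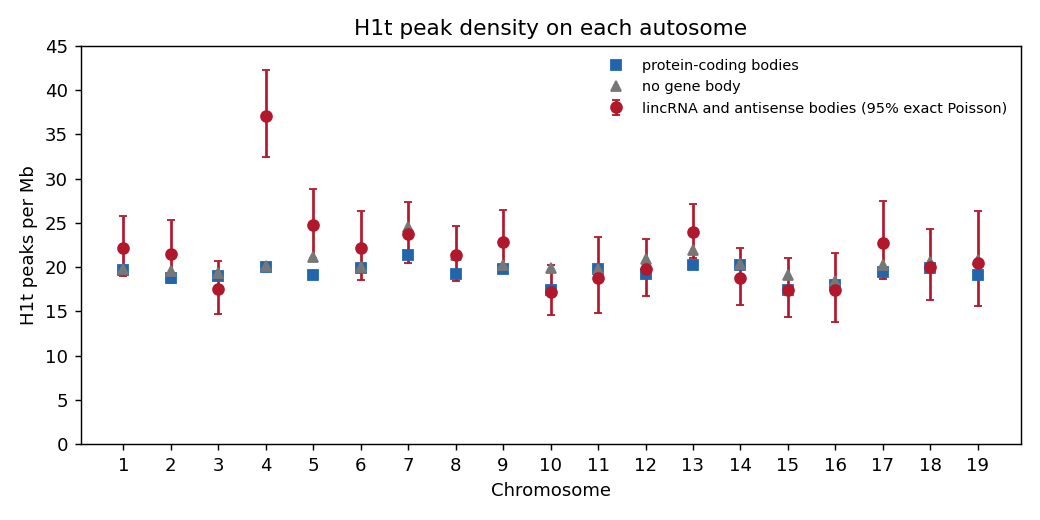
Peaks per Mb on each autosome in lincRNA and antisense bodies (red circles with 95% exact Poisson intervals), protein-coding bodies (blue squares) and bases without a gene (grey triangles). The red circle of chromosome 4, at 37.1, stands above every other value, and the next highest red circle is 24.7 on chromosome 5. Of the 225 lncRNA gene peaks of chromosome 4, 143 lie at 145 to 148 Mb.

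The gene with the most peaks was C230088H06Rik, a lincRNA gene of 474.0 kb on chromosome 4 (147018235 to 147492201, minus strand), with 64. Their folds ran from 1.41 to 2.61 with a median of 1.78. Gm26573 (chromosome 4, 146153456 to 147024959), next to it on the same strand, held 63 peaks with folds from 1.51 to 3.45 and a median of 1.82. Gm26624, which is read from the other strand within the C230088H06Rik body, held 41, so that many of its peaks are those of C230088H06Rik. Each of these genes spans members of a cluster of zinc finger genes, whose proteins, in families of this kind, often bind and silence retroelements.

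Gm21847, an antisense gene of the chromosome 5 region (15516489 to 15656679), held 22 peaks, of which 14 reached a fold of 2, with a median fold of 2.11. Its neighbours belong to the Speer genes, a family known for expression in spermatogenic cells. Gm26804 on chromosome 8 held 17 peaks with a median fold of 1.57 and none at 2, and all 17 lay where the local background was raised. Gm26763 in the chromosome 4 region held 15 and Gm48166 in the chromosome 13 region 13. The remaining genes among the 10 with most peaks were long and lay elsewhere. Gm29536 had 15 peaks over 432.9 kb, Gm31135 had 13 over 440.2 kb and Gm12068 had 12 over 296.4 kb, and 1 of these 40 peaks reached a fold of 2. The peaks of these 3 genes thus had the weak folds of the whole set, in contrast to the chromosome 4 and 5 genes.

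By peaks per kb of body, among genes with at least 3, AC132253.9 and Gm7762 led and had short bodies, which a floor of 3 peaks favours. Bodies among the 10 leading genes ran up to 140.2 kb, at Gm21847. AC132253.9 on chromosome 19 had 3 peaks in 7.999 kb, or 0.375 per kb, and Gm7762 in the chromosome 13 region had 3 in 12.4 kb, or 0.242. Gm4657, Gm29087, Gm16025, Gm13166 and Gm16092 had between 0.187 and 0.197 per kb. Speer4cos, Gm21847 and Gm30613 of the chromosome 5 region had 0.177, 0.157 and 0.149. Of these 10 genes, Gm13166, Speer4cos, Gm21847 and Gm30613 held a peak with a fold of at least 2, and the other 6 held none.

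The chromosome 4 region held 143 of the lncRNA gene peaks in 0.785 Mb of lncRNA bases, or 182 per Mb (exact Poisson interval 154 to 215). The chromosome 5 region held 32, or 168 per Mb (115 to 238), and the chromosome 13 region 39, or 74.9 per Mb (53.3 to 102). The density was raised in the other classes of the same places too. Protein-coding bodies had 125 peaks per Mb in the chromosome 4 region, 91.8 in that of chromosome 5 and 39.2 in that of chromosome 13, and bases without a gene had 130, 63.6 and 71.5. A fold of at least 2 was found in 28 of the 143 peaks of the chromosome 4 region, 16 of the 32 on chromosome 5 and 7 of the 39 on chromosome 13, together 51 of the 120 such lncRNA gene peaks. Among the other autosomal peaks, 1611 of 45626 reached it, and 1535 of 45267 without the regions. A fold of at least 2 was thus frequent in the other peaks of these places too.

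The local background moved with these regions. Worked back from pileup and fold, it was more than 2% above the genome-wide value of 4.95 fragments at 86.7% of the lncRNA gene peaks of the chromosome 4 region, 71.9% of those on chromosome 5 and 64.1% of those on chromosome 13, against 19.3% of the 2526 peaks elsewhere. The input thus held more fragments there as well. Of the other autosomal peaks, 10030 of 45626 stood on a raised background, and 9786 of 45267 without the regions. A raised background was thus frequent in the other peaks of these places too. Over all lncRNA gene peaks the background was raised at 24.1% (22.5 to 25.7), against 22.0% of the other autosomal peaks (Fisher's exact test, adjusted p = 0.0270). Without the 3 regions the order was the opposite, with 19.3% against 21.6% (Fisher's exact test, adjusted p = 0.0239). The regions were picked for many lncRNA gene peaks, and most of these stood on a raised background. Leaving them out thus favours a lower share, so the reversal is a description and no test.

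Much of the sequence in these regions occurs again in the genome. Each peak was cut into all its words of 32 bases, and a word was called recurring when it stood, on either strand, at another place of chromosomes 1 to 19, X or Y. In the chromosome 4 region the median lncRNA gene peak had 87.7% recurring words, in that of chromosome 5 83.4% and in that of chromosome 13 89.9%, whereas the median elsewhere was 1.31%. The reference masked a median of 30.1%, 30.4% and 35.2% of the bases of these peaks as repeats, so most of the recurring words were not in masked bases. At least 50% of words recurring with under 50% of bases masked was found for 95 of the 143, 24 of the 32 and 32 of the 39 peaks, and for 112 of the 2526 elsewhere. Of the other autosomal peaks, 7132 of 45626 had at least 50% recurring words, and 6857 of 45267 without the regions. Recurring sequence was thus frequent in the other peaks of these places too.

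Peaks reaching a fold of 2 were more frequent at a high recurring share. Their share was 2.26% of the 1104 lncRNA gene peaks without a recurring word and 2.35% of the 894 with under 25%. It was 3.35% of the 209 with 25 to 50%, 4.85% of the 165 with 50 to 75% and 16.03% of the 368 above that. Most of the last step lay in the 3 regions: without them 13 of the 212 peaks with 75% or more, 6.13%, reached a fold of 2, beside 3.73% of the 134 with 50 to 75%, 3.65% of the 192 with 25 to 50% and 2.15% of the 884 with under 25%. The share on a raised background took the same order, from 9.42% of the peaks without a recurring word to 60.1% of those with 75% or more, which was 47.2% without the regions. The methods describe no filter on reads that match several places, and values in near-identical gene copies are uncertain for that reason. The part of such reads in the folds was not tested.

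**Figure D3:**
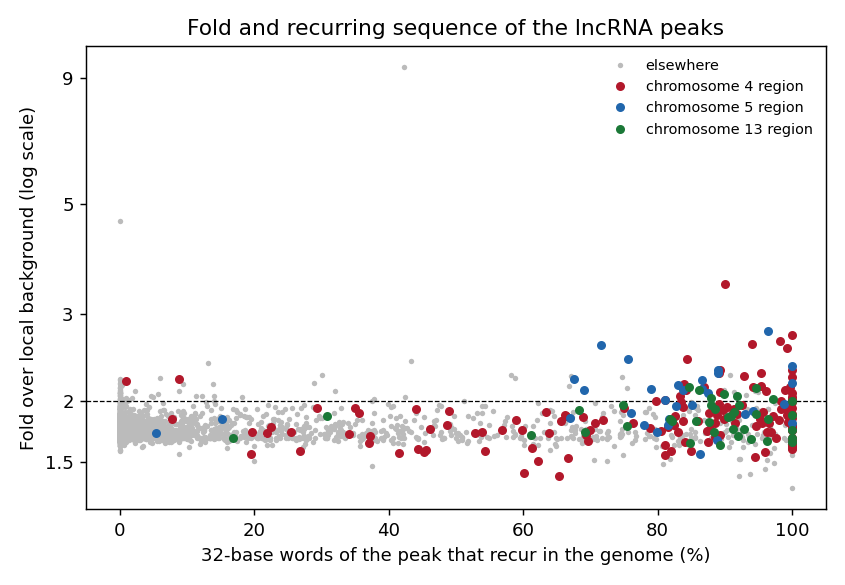
Fold over the local background (log scale) of each of the 2740 lncRNA gene peaks against the percent of its 32-base words that recur in the genome, with the peaks of the 3 regions coloured and a dashed line at a fold of 2. Of the 120 peaks at or above the line, 59 have at least 75% recurring words, while the highest, at 9.47, stands at 42.3%.

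Among the 20 lncRNA gene peaks of highest fold, 9 lay in the chromosome 4 region, 5 in the chromosome 5 region and 6 elsewhere. All but 1 were centred in an intron. The exception was in an exon of Gm16211 on chromosome 4, with a fold of 2.28, the lowest of the 20. The highest lay in an intron of D130079A08Rik (ENSMUSG00000115424.1), 122 kb from the start of the gene and 125 kb from Pou4f1, a transcription factor of sensory neurons. Its fold was 9.47 and its pileup 76.5, over a local background of 7.18. The peak was narrow, at 265 bp, near the fragment length of 241 bp.

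The peak shared by Gm26573 and Gm13166 had a fold of 3.45 over 1244 bp, 73.6 kb from the zinc finger gene Zfp600. That shared by Gm21847 and Gm30613 had 2.77. Both of these and the D130079A08Rik peak had a q under 0.05, as did, among others, a second Gm26573 peak with a fold of 2.55 and a peak in Gm32624 on chromosome 16. The Gm32624 peak had a pileup of 58.8 over a background of 25.5, which gives a fold of 2.25. Outside the 3 regions, other named peaks among the 20 were in 4732471J01Rik on chromosome 7 (fold 2.41), in Rab10os, opposite the membrane traffic gene Rab10, on chromosome 12 (2.38), in Gm10827 on chromosome 10 (2.34) and in Gm13849 on chromosome 6 (2.32). The last 2 were masked as repeats over their whole width. Of the 20, 17 stood on a raised local background.

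The widest peaks lay in the chromosome 4 genes. The 5 widest measured between 10650 and 14686 bp, all in Gm26573 or in the shared body of C230088H06Rik and Gm26624, with folds from 1.87 to 2.002. A high pileup did not always go with a high fold. The highest pileup, 101 fragments in 2700054A10Rik and AC174800.1 on chromosome 17, stood over a local background of 67.8 and gave a fold of 1.48. A Gm26804 peak with a pileup of 94.9 over 67.2 had a fold of 1.41. The D130079A08Rik peak, by contrast, had the 3rd highest pileup and the highest fold, and the Gm32624 peak the 5th highest pileup.

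Of the 8122 lincRNA and antisense genes annotated on the autosomes, 1873 had no base outside protein-coding bodies and could hold no peak under the rule. At least 1 peak was centred in 1492 genes (18.4%), with 917 holding 1, 498 holding 2 to 4, 60 holding 5 to 9 and 17 holding 10 or more. Of these 17, 7 reached into the 3 regions. The centre of 2584 peaks lay in 1 gene, that of 153 in 2 and that of 3 in 3. Genes with a peak were longer, with a median of 34.8 kb against 6.89 kb for all. The share of genes with a peak was 2.76% for bodies under 5 kb, 38% for 20 to 50 kb and 94.9% for 200 kb and more.

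The density per free base changed little with gene length outside the 3 regions. It was 17.8 peaks per Mb (exact Poisson interval 14.3 to 21.9) in bodies under 5 kb, 21.2 (19.6 to 23.0) in those of 20 to 50 kb and 19.5 (17.6 to 21.5) in those of 200 kb and more. With the regions included the longest genes had 26.5 (24.4 to 28.8). lincRNA bodies had 21.9 peaks per Mb (21.1 to 22.8) and antisense bodies 20.1 (18.2 to 22.1). These intervals overlap, and the difference was not tested.

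**Figure D4:**
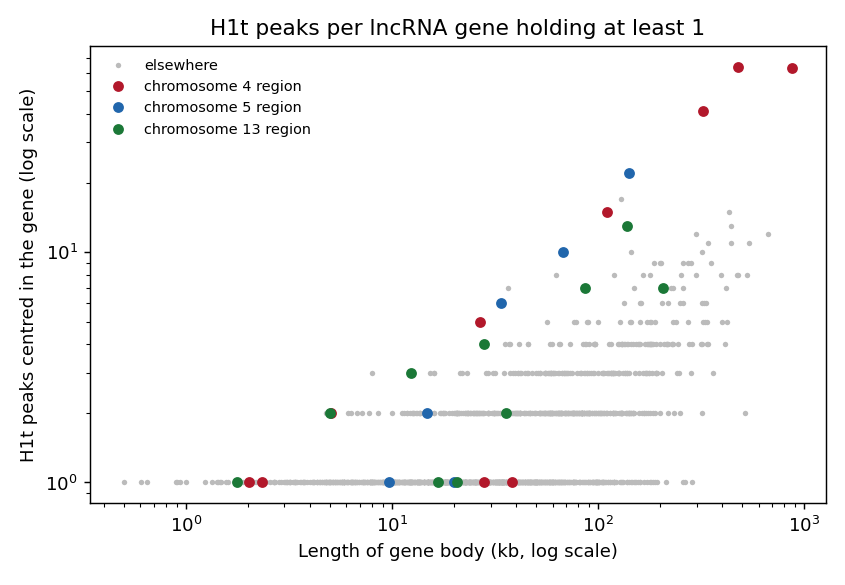
Peaks centred in each of the 1492 lncRNA genes with at least 1 (log scale) against the length of the gene body in kb (log scale), with genes reaching into the 3 regions coloured. The 3 genes with the most peaks, at 64, 63 and 41, are all in the chromosome 4 region, and the highest gene elsewhere holds 17.

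Position within the gene made little difference to the density. An lncRNA exon held the centre of 186 peaks, 6.79% (Wilson interval 5.91 to 7.79), and exons made up 6.67% of the bases in which a centre could lie (two-sided exact binomial test, adjusted p = 0.958). The density was 22.0 peaks per Mb (18.96 to 25.4) in exons and 21.6 (20.8 to 22.4) in introns. In the first 1 kb downstream of an annotated start it was 21.2 (17.6 to 25.5), with 116 peaks, and from 1 to 2 kb 18.8 (15.2 to 23.0). From 20 to 50 kb it was 21.7 (20.1 to 23.5), and beyond 100 kb 24.9 (22.7 to 27.2). Without the 3 regions the last value was 20.8 (18.8 to 22.9), and that of the first 1 kb was 19.9 (16.3 to 24.0). The median distance from a peak centre to the nearest protein-coding body was 77.1 kb, and 43.0% lay over 100 kb away. That nearest gene was a zinc finger gene for 191 peaks, 6.97%, beside 1.97% of the peaks in no gene body, and a predicted (Gm) gene for 174, 6.35% beside 6.31%. Vomeronasal (0.438% beside 1.65%), olfactory (0.547% beside 1.68%) and defensin genes (0.0730% beside 0.143%) were nearest less often. Most of the 191 lay in the 3 regions: outside them a zinc finger gene was nearest to 59 of the 2526 peaks, and a predicted gene to 118. A fold of at least 2 was found for 22 of the 191 (11.5%) and 24 of the 174 (13.8%), where 4.38% of all lncRNA gene peaks and 3.58% of all autosomal peaks had one. Outside the 3 regions it was found for 0 of 59 and 3 of 118. A Speer gene was nearest to 15 peaks, 0.547% beside 0.143% of the peaks in no gene body. Of the 15, 8 had such a fold, and 2, neither with such a fold, lay outside the regions.

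The lncRNA gene peaks were masked as repeats less often than other peaks. Of these peaks 570, or 20.8% (19.3 to 22.4), had 50% or more of their bases masked, against 24.2% (23.8 to 24.6) of the other autosomal peaks (Fisher's exact test, adjusted p = 0.000247). Without the 3 regions the shares were 21.0% and 24.2% (Fisher's exact test, adjusted p = 0.00186). Recurring words had the opposite order, with 50% or more of the words recurring in 19.5% of the lncRNA gene peaks and 15.6% of the others, whereas without the regions the shares were 13.7% and 15.2%. These differences in recurring words were not tested. The share with 50% or more of the bases masked was 15.4% (14.9 to 15.9) for peaks in protein-coding bodies. It was 30.96% (30.4 to 31.5) for those without a gene, so that the lncRNA genes stood between in masking. The bases in which the peaks could lie had the same order, with 32.2% masked in lncRNA bodies, 27.04% in protein-coding bodies and 38.8% in bases without a gene. In windows of 678 bp, 20.7% of those centred on a lncRNA gene peak and 21.1% of all 186892 windows of lncRNA bases were masked to at least 50%. A run of 10 CA or TG units was present in 6.31% of the peaks against 5.44% of other peaks (Fisher's exact test, adjusted p = 0.0860). A run of 20 A or T was present in 1.06% against 1.12% (Fisher's exact test, adjusted p = 0.958).

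GC content moved with the density more than any class of gene did. In windows of 678 bp, the density in lncRNA bodies was 10.1 peaks per Mb (8.53 to 11.95) where GC was under 35%, 16.5 (15.1 to 17.9) from 35 to 40%, 24.6 (23.1 to 26.1) from 40 to 45%, 28.1 (26.1 to 30.2) from 45 to 50% and 27.8 (24.3 to 31.6) from 50 to 55%. It was 11.8 (6.74 to 19.1) from 55 to 60%, where 16 peaks lay, and 3 peaks lay above that. Windows centred on the peaks had a median GC of 43.4%, against 42.0% for all windows of lncRNA bases. The same course was seen in protein-coding bodies, from 8.38 to 26.0 peaks per Mb between the lowest class and 45 to 50%, and in bases without a gene, from 8.20 to 30.7. Compared within these classes of GC (Mantel-Haenszel), the ratio of lncRNA to protein-coding density was 1.12 (1.08 to 1.17) and the ratio to bases without a gene was 0.997 (0.96 to 1.04). Both ratios include the 3 regions. Without them, and not split by GC, the ratio to protein-coding density was 1.05 (1.003 to 1.09). Fragments of very low or very high GC are recovered less well by library preparation, and how far this shaped the course was not tested.

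**Figure D5:**
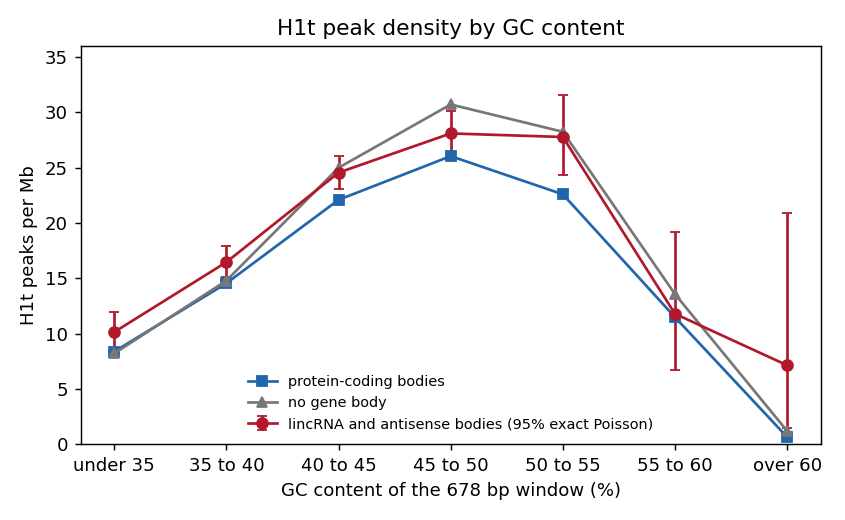
Peaks per Mb by the GC content (%) of 678 bp windows, for lincRNA and antisense bodies (red circles with 95% exact Poisson intervals), protein-coding bodies (blue squares) and bases without a gene (grey triangles). Under 35% GC the values are 10.1 for lncRNA bodies (8.53 to 11.95), 8.38 for protein-coding bodies and 8.20 for bases without a gene. All 3 lines climb from there to their highest point at 45 to 50% GC, which is 28.1 for lncRNA bodies, and fall again above 55%.

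The counts in each list of well-studied lncRNA genes were small and within counting error of the average density. The imprinted, the nuclear and other well-studied, and the developmental lists all held fewer peaks than that density gives. Their joint count was not tested. Of 10 imprinted lncRNAs looked for, 6 were annotated as lincRNA or antisense genes on the autosomes, and 1 of them, Airn, held a peak, with a fold of 1.74 (chromosome 17, 12833751 to 12834434, 90.8% masked). H19, Meg3, Mirg and Nespas held none, and Kcnq1ot1 had no base outside protein-coding bodies. Their 0.127 Mb of free bases would hold 2.76 peaks at the density of all lncRNA bases, so that 1 peak is within counting error (7.84 per Mb, exact Poisson interval 0.199 to 43.7). Of 10 nuclear and other well-studied lncRNAs 7 were annotated, and 2 held 7 peaks against 11.5 at the average density (13.2 per Mb, exact Poisson interval 5.29 to 27.1). Pvt1, which lies beside the oncogene Myc, held 4 over 340.1 kb, with folds of 2.02, 1.65, 1.75 and 1.87. The second of these was in an exon, and the others were intronic. Lncpint, a target of the tumour suppressor p53, held 3 in its introns, with folds of 1.72, 1.83 and 1.71. Malat1, Neat1, Miat, Tug1 and Epb41l4aos held none. Neat1 has 20.8 kb and Malat1 6.98 kb, and lengths of this size would hold less than 1 peak at the average density.

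Of 14 developmental lncRNAs 10 were annotated, and 2 held 3 peaks against 6.30 at the average density (10.3 per Mb, interval 2.12 to 30.1). Pantr1, beside the neural transcription factor gene Pou3f3, held 2 with folds of 1.81 and 1.82, and Rmst, known in neurogenesis, held 1 with a fold of 1.68. Hotair, Hottip, Hotairm1, Dlx6os1, Evx1os, Bvht and Trp53cor1 held none, and Dnm3os had no free base. The 6 Snhg genes, hosts of small nucleolar RNAs, held none in 0.0131 Mb. Of 8 miRNA host genes, Mir670hg held 3 peaks and Mir124a-1hg 1, together 4 against 3.93 at the average density.

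The larger groups followed the average density. Genes named as opposite strand (268 genes) held 51 peaks, or 21.8 per Mb (16.3 to 28.7). Otx2os1 led with 9, followed by Zmiz1os1 and Speer4cos with 6 each and Nkx2-2os with 4. The 859 genes named from RIKEN clones of testis libraries held 344 peaks in 195 genes, with 21.8 per Mb (19.5 to 24.2) and a median fold of 1.72. Among these, 1700030N03Rik held 10, 4933436I20Rik 8, 4932411K12Rik 7 and 1700123O12Rik 6. The 733 other RIKEN genes held 397 peaks, with 23.4 per Mb (21.1 to 25.8), of which C230088H06Rik had 64, A330008L17Rik 10, and 2700054A10Rik and 6030443J06Rik 9 each. The 5563 predicted (Gm) genes held 1793 peaks, with 21.7 per Mb (20.7 to 22.7). A fold of at least 2 was reached by 13 of the 344 peaks in testis clones (3.78%) and by 18 of the 397 in other clones (4.53%). In opposite-strand genes 4 of the 51 peaks (7.84%) reached it, and in predicted genes 90 of the 1793 (5.02%). The share was 4.38% of all lncRNA gene peaks and 3.58% of all autosomal peaks, and the groups were not compared by a test. The intervals of all 4 groups include the 21.6 peaks per Mb of all lncRNA bases, and the densities count a peak once for each gene that holds it.

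The rule turned on the centre of each peak. Of the autosomal peaks, 2830 overlapped the same bases by at least 1 bp, and 90 of these had their centre outside them, with a median fold of 1.75 and 13 at a fold of at least 2.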

How the data were processed

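Read quality was assessed by the authors in FastQC 0.11.5. Bowtie2 placed the reads on GRCm38.p5 in local mode, and MACS2 2.1.2, run in its broad mode at an unadjusted p of 0.05, took the ChIP and the input libraries pooled. Per the file headers, 39221290 of 51192421 ChIP fragments and 30377916 of 55300487 input fragments remained after filtering. The deposited list gives the pileup signal, the fold ratio over local background, the −log10 p and the −log10 q. Its header states that q was not calculated although the column holds values. Columns of values per sample left out numbered 0.

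GENCODE vM21 genes and the GRCm38.p6 sequence, with the same primary chromosome coordinates as the peaks, were read using Python 3.11.15, numpy 2.4.6, pandas 2.3.3, scipy 1.17.1 and matplotlib 3.10.9. Assembly gaps were left out. Masked bases are those in lower case in the reference. Background was (pileup + 1)/fold − 1. The 9 shares and 2 density ratios were adjusted by Benjamini-Hochberg within each family. Checks on simulated data covered the density ratio, the median and Wilson intervals, the Mantel-Haenszel ratio and the cutting into words. The Benjamini-Hochberg adjustment was checked on a known answer. The exact Poisson intervals were not among these checks. Named were the 20 peaks of highest fold, the 10 genes with most peaks, the 10 genes of 3 or more peaks that led per kb, and up to 4 genes, or every gene of the short lists, of 9 lists. One of these peaks is not reported here. Other genes, peaks and the 3 regions were named after their values were seen. The peaks and lists were chosen with earlier results of these data known.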

Additional observations from a re-analysis of the deposited data

How the results depend on the processing

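No paired analysis was possible because the single peak list pools the libraries, and leaving out a replicate could not be done for the same reason. The exon share with an overlap of 1 bp was not run, as the share of bases gives no background for it. Leaving out the dense regions and comparing within GC classes were chosen after seeing the data. The regions were picked for many lncRNA gene peaks, so leaving them out favours a lower lncRNA density. The density ratio to protein-coding bodies stayed above 1 under all 13 alternatives, but no longer passed for peaks with q under 0.05 (1.47), for antisense genes alone (1.04) and without the 3 regions (1.05). The ratio to bases without a gene did not pass with peaks merged within 3 kb (1.023), without C230088H06Rik (1.04) or without the chromosome 4 region (1.01), and fell below 1 for q under 0.05 (0.873), antisense genes (0.984), without the 3 regions (0.994) and within GC classes (0.997). For q under 0.05 the share with a fold of at least 2 did not pass, with 100% against 71.2% of the other peaks. For p under 0.01 it was 31.7% against 30.6% and did not pass either. Both cuts favour a high fold in any set of peaks. The share also did not pass for lincRNA genes (4.18% against 3.55%) or antisense genes (5.72% against 3.56%). Nor did it pass without C230088H06Rik (4.22% against 3.53%) or without the chromosome 4 region (3.54% against 3.44%). It was below the other peaks at the genome-wide background (2.88%) and without the 3 regions (2.73%). The masked share stayed lower throughout and missed the threshold for q under 0.05 (16.7%) and antisense genes (21.1%). The exon share, which passed nowhere, was below the share of bases for q under 0.05 (0%), p under 0.01 (6.33%), a fold of at least 2 (5.83%), antisense genes (3.66%) and with other lncRNA types added (6.76%). The median fold moved to 3.11 for q under 0.05 (2.34 for the other peaks) and 1.94 for p under 0.01 (1.95 for the others). Such cuts raise the fold of any set, so these 2 moves were expected beforehand. Without the 3 regions it was 1.727 (1.725 for the others). With 6 lncRNA gene peaks at q under 0.05, that setting can show little. Depth sets the floor, since a peak needed a pileup of 9.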

Other observations

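By windows of 1 Mb, 994 of 2473 autosomal windows held the centre of a lncRNA gene peak, with a median of 2. Outside the chromosome 4, 5 and 13 regions the windows with most were 8 to 9 Mb of chromosome 8 with 19 peaks, of which 2 stood on a raised background, 20 to 21 Mb of chromosome 8 with 17, all on a raised background, 38 to 39 Mb of chromosome 7 with 16 and 13 to 14 Mb of chromosome 17 with 13. The first of these, with Gm31135 as its main gene, had 31.6 peaks per Mb of lncRNA bases, while the second, with Gm26804, had 165.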
